A study of Mus musculus with 11 samples.

Results

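The immediate early genes described here are Fos, Fosb, Jun, Junb, Atf3, Egr1, Klf6, Ier2, Ier3 and Myc. These 10 genes were chosen by name with earlier results of these data known, and each matched once among the 31053 genes of the mouse liver count matrices. The Visium assay captures polyadenylated RNA from a frozen tissue section through barcoded spots, and a spot can cover several cells. Uninjured liver at 0 h gave 3 sections, named 2, 3 and 4. Another 8 carry the disease label POD and, by the study's methods, followed acetaminophen (APAP). These were 24 h A and B, 36 h A and B, and 48 h A, B, C and D. APAP overdose kills hepatocytes around the central vein of the liver lobule, and the study used this injury to follow how the tissue closes the wound and regenerates. Per the study's methods, APAP was injected intraperitoneally after a fast, and the mice were young adults and male unless stated otherwise. The labels give no strain, allele or transgene for these sections and no fasting or vehicle treatment for the 0 h sections. By those methods 1 mouse was used at each time for the spatial assay. Here n therefore counts sections, p-values reflect differences among sections that may share a mouse, and an effect of the animal cannot be told apart from one of time.

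Immediate early genes are transcribed within minutes of a growth factor, cytokine or stress signal, from factors already present in the cell, and most of their mRNAs are short-lived. Fos and Jun proteins pair through leucine zippers to form AP-1, which binds DNA at AP-1 sites. Atf3 belongs to the related ATF family and pairs with Jun. In liver they are known from the first hours after partial hepatectomy, when hepatocytes leave quiescence. Egr1 and Klf6 are zinc finger factors and Myc drives growth and ribosome biogenesis. Ier2 is a nuclear protein without a known DNA-binding domain, and Ier3 is a stress-inducible regulator of survival and signalling rather than a DNA-binding factor, so the word transcription factor covers the 10 genes only loosely.

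The promoters of 4 members whose values the results turn on are shown so that the DNA around them can be read beside their expression. Promoter windows were taken from RefSeq (GRCm38.p6, the assembly also called mm10) for 7 of the 10 members. The 250 bases before the start are printed, 5′ to 3′ on the strand of the gene, with capitals marking motif matches.
Fos, chr12:85473640-85473889, plus strand: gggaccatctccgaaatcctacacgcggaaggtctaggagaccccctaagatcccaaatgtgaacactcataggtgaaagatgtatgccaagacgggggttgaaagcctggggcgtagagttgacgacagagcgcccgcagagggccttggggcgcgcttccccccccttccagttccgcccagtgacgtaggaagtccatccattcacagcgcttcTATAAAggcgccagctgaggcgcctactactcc
Jun, chr4:95052223-95052472, minus strand: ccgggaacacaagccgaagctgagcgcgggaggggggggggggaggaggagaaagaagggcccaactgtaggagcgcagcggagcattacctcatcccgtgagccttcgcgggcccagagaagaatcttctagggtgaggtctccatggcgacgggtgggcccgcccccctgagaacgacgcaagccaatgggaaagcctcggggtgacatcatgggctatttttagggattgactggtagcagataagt
Atf3, chr1:191183334-191183583, minus strand: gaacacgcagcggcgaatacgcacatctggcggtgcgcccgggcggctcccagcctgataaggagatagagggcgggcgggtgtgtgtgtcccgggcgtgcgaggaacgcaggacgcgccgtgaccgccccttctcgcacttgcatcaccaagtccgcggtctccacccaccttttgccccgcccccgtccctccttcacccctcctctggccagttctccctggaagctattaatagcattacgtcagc
Klf6, chr13:5861239-5861488, plus strand: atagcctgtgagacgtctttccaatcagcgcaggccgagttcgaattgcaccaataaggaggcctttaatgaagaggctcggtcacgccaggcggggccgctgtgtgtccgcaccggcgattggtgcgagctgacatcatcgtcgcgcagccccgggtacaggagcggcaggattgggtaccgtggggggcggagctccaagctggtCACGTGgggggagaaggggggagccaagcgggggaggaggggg

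The motifs searched on both strands were the AP-1 site (TGAGTCA or TGACTCA), the cAMP response element (TGACGTCA), the CArG box, the E-box CACGTG and the TATA box TATAAA, and no match overlapped another. Fos held a TATA box 33 to 28 bases before its start, a motif present in 12.4% of the 32851 promoter windows of this length. Klf6 held an E-box, the site bound by Myc and its partner Max, 43 to 38 bases before its start, present in 6.02% of windows. Fosb, Jun, Junb, Atf3 and Ier3 held no exact match to the 5 motifs in this window. Near matches and sites outside the window were not counted. The AP-1 site was found in 4.46% of all windows, the cAMP response element in 1.55% and the CArG box in 1.47%. The printed Atf3 window lies inside the annotated gene (chr1:191170296-191218039, minus strand, GENCODE M21), and the counts do not separate transcripts with different starts. Junb overlaps Prdx2, and Jun overlaps the antisense gene Junos, each on the opposite strand.

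Section sums held 31292663 to 67045372 UMIs (unique molecular identifiers, each a captured mRNA molecule) in 1490 to 3466 spots. Levels are given as CPM, the UMIs of a gene relative to the TMM-scaled section total. Members were sparse, with 2 UMIs of Fosb in 36 h A as the lowest and 5100 of Ier2 in 48 h A as the highest section sum. All 6 hepatocyte markers (Alb, Ttr, Hp, Hnf4a, Apoa1, Cyp2e1) were detected in every section. Their summed level was 109800 to 114800 CPM at 0 h, 82690 to 95590 at 24 h, 81810 to 99080 at 36 h and 72900 to 89360 at 48 h. Against 0 h, 1 of the 6 was called higher at each time (all genes 23.1%, 16.8% and 23.3%). At 24, 36 and 48 h, 4, 2 and 4 were called lower (all genes 18.6%, 12.4% and 20.9%). TMM centres the typical gene near no change. Scaling by the total count placed the median log2 change of all genes from 0 h at 0.37, 0.49 and 0.54 at 24, 36 and 48 h. With TMM it was 0.05, 0.05 and 0.01, so directions are relative to that choice.

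The comparisons with 0 h asked which members changed after injury. At 24 h, 8 of the 10 members were higher than at 0 h by edgeR's quasi-likelihood test, against a background of 23.1% of the 14821 genes tested called higher, and none was lower, against 18.6%. At 36 h, 6 were higher (background 16.8%) and none lower (12.4%), and at 48 h 8 were higher (23.3%) and none lower (20.9%). The median log2 fold change of the members was 2.14, 1.24 and 1.5 at 24, 36 and 48 h, against 0.05, 0.05 and 0.01 over all genes. Under total-count scaling 80.4%, 94.1% and 93.7% of all calls were higher, against 55.4%, 57.5% and 52.7% with TMM, and 8, 7 and 9 members were then called. These comparisons share the 0 h sections. The members and gene lists were chosen with earlier results of these data known, so the shares over all genes are a description and no test.

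**Figure D1:**
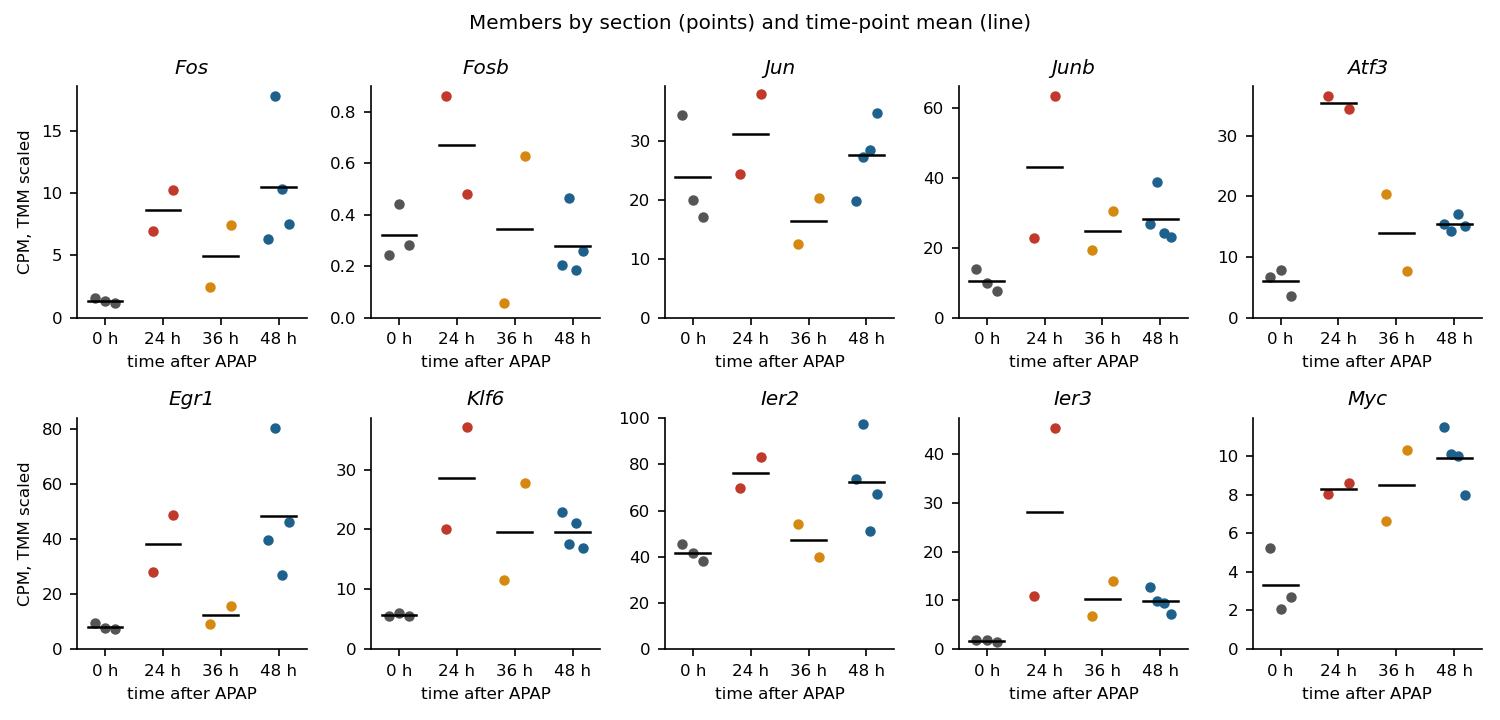
Level of each member in CPM (vertical axis, linear from 0, a different scale in each panel) against time after APAP in hours. Points are the 11 sections and lines the time-point means; Atf3 was at 34.4 and 36.5 CPM in the 24 h sections, above all other sections, whereas Jun overlapped between 0 h and each later time.

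Among the AP-1 genes, Fos, the prototype of the family, stood at 1.54, 1.33 and 1.16 CPM in the 0 h sections, 6.97 and 10.3 at 24 h, 2.43 and 7.48 at 36 h, and 6.31, 17.8, 10.3 and 7.53 at 48 h. Every injured section was above all 3 sections at 0 h, with 48 h B the highest. The log2 fold change was 2.67 ± 0.52 (SE) at 24 h (adjusted p = 0.00257), 1.88 ± 0.53 at 36 h (adjusted p = 0.0243) and 2.96 ± 0.47 at 48 h (adjusted p = 0.000806). The 36 h call held in 12 of 17 alternatives, with adjusted p from 0.000921 to 0.345. The highest came without 36 h B, where the log2 fold change was 0.85, and without each 0 h section in turn it was 0.0542, 0.0667 and 0.0676.

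Fosb, its close paralog, was the least detected member, with 10 to 24 UMIs per section at 0 h and 2 to 40 after injury. Its level was 0.242, 0.442 and 0.282 CPM at 0 h, 0.860 and 0.479 at 24 h, 0.0579 and 0.628 at 36 h, and 0.203, 0.463, 0.187 and 0.260 at 48 h. Groups overlapped at 36 h and 48 h, and no difference from 0 h was detectable at this depth, with a log2 fold change of 1.05 ± 0.66 at 24 h (adjusted p = 0.227), 0.08 ± 0.73 at 36 h and −0.26 ± 0.58 at 48 h. Under total-count scaling the 48 h value was 0.26.

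Jun, the leading AP-1 partner of Fos, was at 34.5, 20.02 and 17.1 CPM at 0 h, 24.4 and 38.2 at 24 h, 12.5 and 20.4 at 36 h, and 19.9, 27.3, 28.6 and 34.9 at 48 h. Values at 0 h overlapped those of every later time, so Jun, unlike most members, had no called change in the whole section. Its log2 fold change was 0.39 ± 0.34 at 24 h (adjusted p = 0.388), −0.54 ± 0.35 at 36 h (adjusted p = 0.269) and 0.21 ± 0.29 at 48 h (adjusted p = 0.573). Total-count scaling gave 0.74 at 48 h with an adjusted p of 0.0394.

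Junb, a Jun relative with weaker activating function, was at 14.0, 9.79 and 7.48 CPM at 0 h, 22.7 and 63.6 at 24 h, 19.3 and 30.6 at 36 h, and 26.8, 38.9, 24.1 and 23.2 at 48 h. All injured sections lay above all 0 h sections, and 24 h B was far above 24 h A. The log2 fold change was 2.04 ± 0.42 at 24 h (adjusted p = 0.00341), 1.26 ± 0.42 at 36 h (adjusted p = 0.0455) and 1.44 ± 0.37 at 48 h (adjusted p = 0.00995). Without 24 h B the 24 h value fell to 1.12 (adjusted p 0.0512, against as low as 3.42e-06 under the other alternatives). The 36 h call held in 9 of 17 alternatives, with adjusted p from 0.00696 to 0.291. It was lost without 0 h 3, 0 h 4, 36 h A, 36 h B, 48 h A, 48 h C or 48 h D and with no filter.

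Atf3, a stress-induced repressor and activator, was at 6.63, 7.77 and 3.62 CPM at 0 h, 36.5 and 34.4 at 24 h, 20.3 and 7.70 at 36 h, and 15.4, 14.3, 17.0 and 15.1 at 48 h. Both 24 h sections were alike and the highest, the 4 sections at 48 h lay close together, and 36 h B fell within the 0 h range. The log2 fold change was 2.55 ± 0.36 at 24 h (adjusted p = 0.000483), 1.21 ± 0.36 at 36 h (adjusted p = 0.0318) and 1.36 ± 0.32 at 48 h (adjusted p = 0.00634). Without 36 h A the 36 h value was 0.34 with an adjusted p of 0.424, and over the 17 alternatives, of which 12 kept the call, that p ran from 0.00477. It was also lost without 0 h 2 or 0 h 4 (0.0685 and 0.083).

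Of the zinc finger genes, Egr1, a growth factor and injury response factor, was at 9.31, 7.84 and 7.37 CPM at 0 h, 28.0 and 48.8 at 24 h, 8.98 and 15.8 at 36 h, and 39.6, 80.6, 27.1 and 46.1 at 48 h. It was high at 24 h and 48 h with no overlap with 0 h, and 36 h A lay within the 0 h range. The log2 fold change was 2.23 ± 0.42 at 24 h (adjusted p = 0.00221), 0.60 ± 0.43 at 36 h (adjusted p = 0.309) and 2.56 ± 0.38 at 48 h (adjusted p = 0.000566).

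Klf6, a Krüppel-like factor induced in liver injury, was at 5.50, 6.06 and 5.48 CPM at 0 h, 20.04 and 37.1 at 24 h, 11.6 and 27.7 at 36 h, and 22.9, 17.6, 21.0 and 16.9 at 48 h. Every injured section exceeded all 0 h sections. The log2 fold change was 2.33 ± 0.34 at 24 h (adjusted p = 0.000547), 1.79 ± 0.34 at 36 h (adjusted p = 0.00457) and 1.79 ± 0.30 at 48 h (adjusted p = 0.00104), and all 17 alternatives kept each call.

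Ier3 had the largest change of the 10 members at 24 h, from 1.85, 1.82 and 1.41 CPM at 0 h to 10.97 and 45.3 at 24 h, with 6.75 and 13.9 at 36 h and 12.8, 9.96, 9.37 and 7.22 at 48 h. All injured sections were above 0 h, and the 24 h sections differed from each other more than the 48 h sections did. The log2 fold change was 4.04 ± 0.54 at 24 h (16.4-fold, adjusted p = 0.000389), 2.60 ± 0.54 at 36 h (adjusted p = 0.00698) and 2.53 ± 0.48 at 48 h (adjusted p = 0.00230). Without 24 h B the 24 h value fell to 2.68, and the 24 h and 48 h calls held in all 17 alternatives. The 36 h call was lost without 36 h B (1.98, adjusted p 0.0762, against 1.63e-06 at the lowest).

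Ier2 was at 45.4, 41.6 and 38.2 CPM at 0 h, 69.6 and 83.0 at 24 h, 54.4 and 39.9 at 36 h, and 73.8, 97.3, 51.3 and 67.1 at 48 h. It was above 0 h in every 24 h and 48 h section, while 36 h B fell within the 0 h range. Its changes were small, with a log2 fold change of 0.87 ± 0.23 at 24 h (adjusted p = 0.0111), 0.18 ± 0.23 at 36 h (adjusted p = 0.596) and 0.79 ± 0.20 at 48 h (adjusted p = 0.00798). Without 24 h B the 24 h call was lost (adjusted p 0.0863, against a lowest of 0.00109), and total-count scaling gave 0.62 at 36 h with an adjusted p of 0.0429.

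Myc was at 5.24, 2.08 and 2.71 CPM at 0 h, 8.02 and 8.61 at 24 h, 6.63 and 10.3 at 36 h, and 11.5, 10.1, 10.0 and 7.96 at 48 h. Later groups lay above 0 h and overlapped one another. The log2 fold change was 1.31 ± 0.33 at 24 h (adjusted p = 0.00956), 1.34 ± 0.33 at 36 h (adjusted p = 0.0141) and 1.57 ± 0.29 at 48 h (adjusted p = 0.00170). Without 24 h B the adjusted p at 24 h was 0.0512, against 0.000746 at the lowest. The 36 h call was lost without 36 h B (0.99, adjusted p 0.121, against 0.000962) and with only the 2 time points (0.064).

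**Figure D2:**
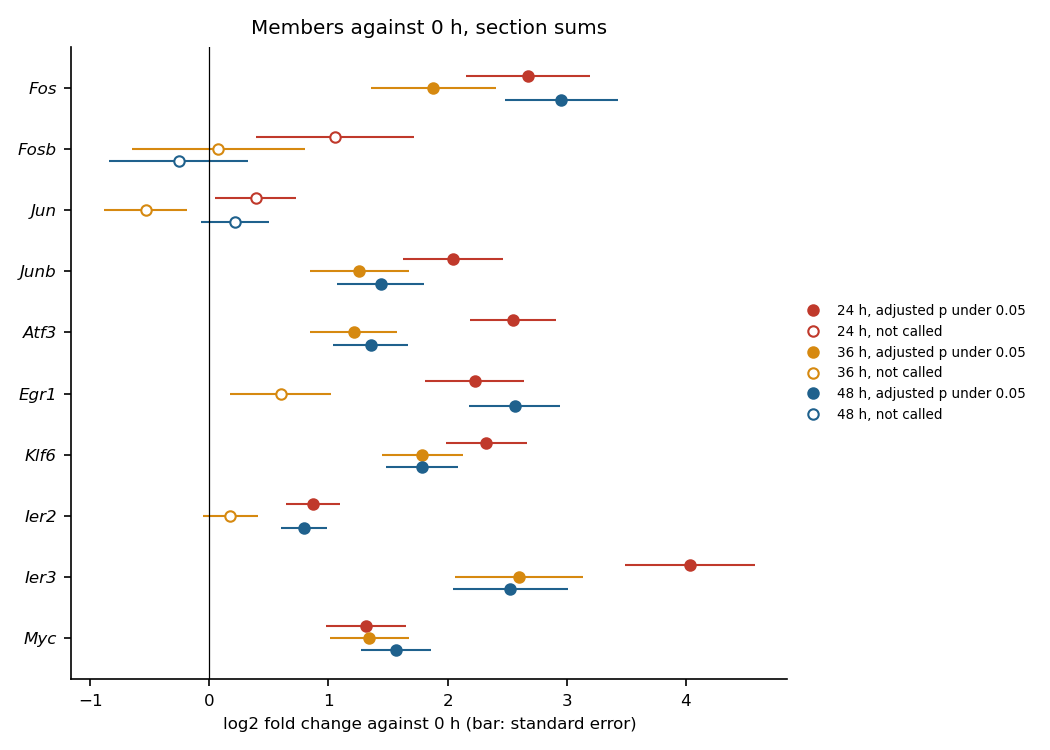
Log2 fold change of each member (rows) at 24, 36 and 48 h against 0 h, with standard errors as bars; filled circles mark an adjusted p under 0.05. Ier3 reached 4.04 at 24 h, and Jun and Fosb had no filled circle.

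Neutrophil markers were also higher after injury. All 5 (S100a8, S100a9, Csf3r, Retnlg, Cxcr2) were detected in every section, and their summed level was 3.17 to 9.06 CPM at 0 h, 41.5 to 142 at 24 h, 25.4 to 66.6 at 36 h and 35.5 to 113 at 48 h. The 4 myofibroblast markers summed to 37.5 to 45.9 CPM at 0 h and 484 to 1185 at 48 h. Macrophage markers, 6 genes, summed to 575 to 623 CPM at 0 h and 835 to 1509 at 48 h. Of these, 3 were called higher and none lower at 48 h, and 1 higher and 1 lower at both 24 h and 36 h. Of the 4 cholangiocyte markers 1 rose at 24 h, Krt8, from a mean of 213 to 1040 CPM, 1 fell, Cdh1, from 39.2 to 16.7 CPM, and Epcam and Krt19 were not called. Their summed level of 236 to 293 CPM at 0 h and 978 to 1141 at 24 h was thus mostly Krt8. All markers of these lists were detected in every section. The part of these cells in the members' changes was not tested, and in whole sections fewer cells of a type cannot be told apart from less RNA per cell.

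Between injured times few members differed. From 24 h to 36 h, Atf3 fell by 1.34 ± 0.40 on the log2 scale (adjusted p = 0.0472) and Egr1 by 1.63 ± 0.47 (adjusted p = 0.0438), 2 of 10 members against 8.58% of genes called lower, and no member rose, against 7.04%. From 36 h to 48 h, Egr1 rose by 1.96 ± 0.44 (adjusted p = 0.0454), 1 member against 1.62%, and none fell, against 1.43%. These calls lay near the threshold. Of 18 alternatives, that for Atf3 held in 5 (adjusted p 0.00481 to 0.227), that for Egr1 falling in 6 (0.00229 to 0.20) and that for Egr1 rising in 6 (1.86e-05 to 0.178). With the section letter as a replicate block, 1 member was called from 24 h to 36 h and 0 from 36 h to 48 h.

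Among the 8 AP-1 relatives (Fosl1, Fosl2, Jund, Maff, Mafk, Mafg, Jdp2, Batf), 6 rose and none fell at 24 h, 4 rose and none fell at 36 h, and 2 rose and 1 fell at 48 h. Over all genes, 23.1% rose and 18.6% fell at 24 h, 16.8% and 12.4% at 36 h, and 23.3% and 20.9% at 48 h, so the count at 48 h was near the background. Of the 3 small Maf genes, Mafk and Maff rose at 24 h and Mafg was not called (log2 −0.02, adjusted p = 0.922). Mafk went from a mean of 9.79 CPM at 0 h to 40.3 at 24 h, a log2 fold change of 2.04 ± 0.14 (adjusted p = 2.4e-05), and Maff from 3.04 to 21.6 CPM, a log2 fold change of 2.82 ± 0.27 (adjusted p = 5.58e-05). Fosl1, the Fos relative Fra-1, had 1 UMI in the 3 sections at 0 h and 1215 in the 2 at 24 h, a pooled ratio of 2110 with an exact Poisson 95% interval of 378 to 83400 that covers counting error only.

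Of 11 other immediate early regulators (Egr2, Egr3, Klf2, Klf4, Klf10, Nr4a1, Nr4a2, Nr4a3, Ier5, Csrnp1, Bhlhe40), 3 rose at each time and none, 1 and 3 fell at 24, 36 and 48 h, and the list median at 24 h was −0.08. As 3 of 11 genes these counts lay near the shares over all genes (23.1%, 16.8% and 23.3% higher, 20.9% lower at 48 h). Ier5 rose by 1.74 ± 0.13 on the log2 scale at 24 h (adjusted p = 2.61e-05) and Egr2, a relative of Egr1, by 4.91 ± 0.56 (adjusted p = 0.000114), from 11 UMIs at 0 h to 188. Egr3 had 3 UMIs at 0 h and 25 at 24 h, a pooled ratio of 14.5 with an exact interval of 4.42 to 74.9.

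Among 16 feedback and stress-response genes (Dusp1, Dusp2, Dusp5, Dusp6, Zfp36, Btg2, Socs3, Nfkbia, Tnfaip3, Gadd45a, Gadd45b, Gadd45g, Ppp1r15a, Sgk1, Spry2, Spry4), 8 rose and 1 fell at 24 h, 5 and 1 at 36 h, and 6 and 1 at 48 h, against 23.1%, 16.8% and 23.3% of all genes higher and 18.6%, 12.4% and 20.9% lower. Dusp5, a phosphatase that restrains growth factor signalling, rose by 3.55 ± 0.36 on the log2 scale at 24 h (adjusted p = 7.76e-05), Socs3, the brake on cytokine signalling, by 3.14 ± 0.38 (adjusted p = 0.000187), and Tnfaip3, which restrains NF-κB, by 1.99 ± 0.24 (adjusted p = 0.000166). Of 12 upstream kinases and factors, among them Srf, Creb1, Stat3 and Rela, 2 rose and 4 fell at 24 h, none rose and 2 fell at 36 h, and 1 rose and 4 fell at 48 h. The shares of all genes were 23.1%, 16.8% and 23.3% higher and 18.6%, 12.4% and 20.9% lower. At each time fewer of the list rose and more fell than of all genes, but 12 genes are few. Stat3 was higher by 0.86 ± 0.15 at 24 h (adjusted p = 0.00140) and Rela by 0.46 ± 0.10 (adjusted p = 0.00442).

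The 12 MYC target genes (Ncl, Odc1, Cad, Nop56, Npm1, Ldha, Eif4a1, Srm, Ccnd2, Cdk4, Nolc1, Fbl) had 9 rising and none falling at 24 h, 4 and none at 36 h, and 3 and none at 48 h, against 23.1%, 16.8% and 23.3% of all genes higher. The 48 h count was thus near the background. Nop56, of the small nucleolar ribonucleoprotein, rose from a mean of 18.5 to 56.4 CPM at 24 h (log2 1.61 ± 0.13, adjusted p = 2.99e-05), Srm, spermidine synthase, from 36.6 to 136 CPM (log2 1.89 ± 0.21, adjusted p = 0.000109), and Cdk4 from 40.3 to 83.5 CPM (log2 1.05 ± 0.11, adjusted p = 9.04e-05). From 24 h to 36 h, 5 of the 12 fell and none rose, against 8.58% and 7.04% of all genes. Among the 8 MYC partners and relatives (Max, Mxd1, Mxd4, Mxi1, Mlx, Mycn, Mycl, Mnt), 3 rose and 2 fell at 24 h, none and 1 at 36 h, and 1 and 3 at 48 h, against 23.1%, 16.8% and 23.3% of all genes higher and 18.6%, 12.4% and 20.9% lower. Max, the obligate partner, rose by 0.63 ± 0.13 at 24 h (adjusted p = 0.00293), Mycn by 1.43 ± 0.46 (adjusted p = 0.0268), and Mycl fell by 1.16 ± 0.18 (adjusted p = 0.000730).

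Across spots the members were sparse. With each spot thinned to 2000 UMIs, the share of spots with a UMI of Atf3 was 0.301% to 1.03% at 0 h, 6.98% and 7.34% at 24 h, 1.38% and 4.01% at 36 h and 2.73% to 3.92% at 48 h. For Egr1 it was 0.730% to 1.39% at 0 h and 5.48% to 16.5% at 48 h, with the highest value in 48 h B (16.5%, Wilson 95% interval 14.7% to 18.5%, counting error only). For Fosb it was at most 0.303%, and in 48 h B 0 of 1490 thinned spots held one, which allows a share of up to 0.201% at the thinned depth and is no limit at full depth, where 1.34% of its spots held one. Without thinning, the median over members and sections was 21.9% in place of 2.55%.

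To ask where in the tissue the members lay, spots of each section were ranked by the share of their UMIs from 7 secreted-protein genes of hepatocytes (Alb, Apoa1, Apoa2, Apob, Apoc3, Ttr, Rbp4). The lowest 20% of spots (hepatocyte-poor) were compared with the highest 20% (hepatocyte-rich) within sections. The 7 genes, left out of the test, took 9.61% to 10.6% of UMIs in poor and 13.6% to 14.3% in rich spots at 0 h, and 5.79% to 7.76% against 12.7% to 15.0% at 48 h. Poor spots at 0 h held fewer UMIs, with medians of 12268 to 21783 against 24451 to 40230 in rich spots. The classes name spots by transcript share and are no measure of necrosis. At 0 h the 7 genes also took a smaller share in central than in portal spots of the lobule, as given below. A class difference that changes after injury therefore cannot be told apart from a change in which spots are poor.

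At 0 h no member was higher in poor spots (background 4.41% of 13514 genes) and 3 were lower (5.89%). At 24 h 7 were higher (15.5%) and none lower (17.7%), at 36 h 5 were higher (19.4%) and none lower (19.7%), and at 48 h 5 were higher (36.6%) and 2 lower (30.7%). The median log2 difference of the members was −0.26, 1.18, 1.25 and 0.83 at 0, 24, 36 and 48 h, against 0.00, −0.00, 0.02 and 0.06 over all genes. Under total-count scaling, which placed the median gene 0.16, 0.45, 0.48 and 0.66 higher in poor spots, 80.8%, 90.2%, 87.9% and 86.0% of calls were higher, against 42.8%, 46.7%, 49.7% and 54.4% with TMM.

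**Figure D3:**
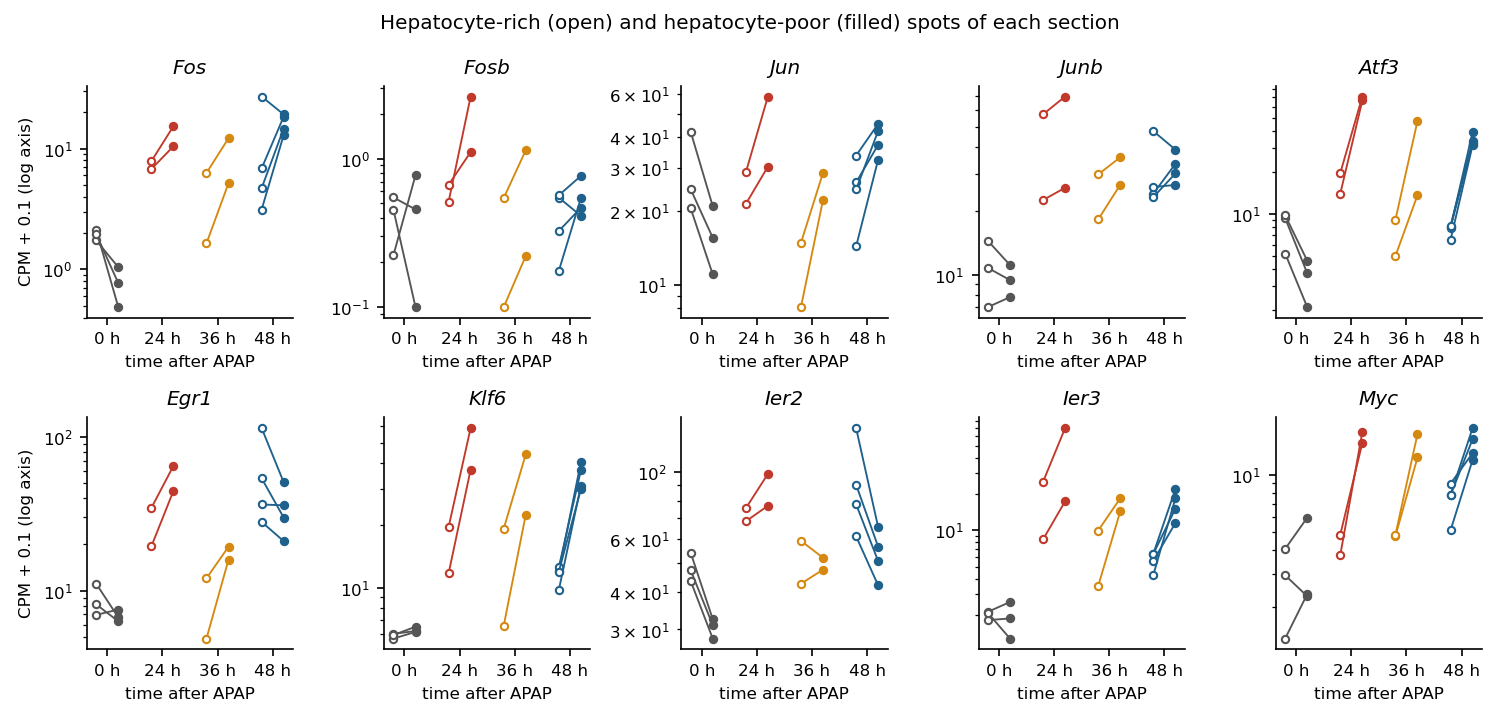
Level of each member in hepatocyte-rich (open) and hepatocyte-poor (filled) spots, CPM plus 0.1 on a log axis, by time after APAP in hours; a line joins the 2 classes of 1 section. Atf3 lines fall at 0 h and rise in all 8 injured sections, and Ier2 lines fall at 0 h and 48 h.

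Atf3 turned over most. In poor and rich spots it was at 3.62 and 9.24 CPM in 0 h 2, 4.49 and 9.69 in 0 h 3, and 2.02 and 5.07 in 0 h 4. After injury it was at 71.0 and 19.7 in 24 h A, 66.5 and 14.0 in 24 h B, 47.2 and 8.99 in 36 h A, 13.6 and 4.86 in 36 h B, and in 48 h A to D at 32.7 and 7.92, 31.5 and 6.40, 39.2 and 7.88, and 34.0 and 8.15. Poor spots were the lower class in all 3 uninjured sections and the higher in all 8 injured ones. The log2 difference was −1.23 ± 0.19 at 0 h (adjusted p = 5.9e-05), 2.02 ± 0.13 at 24 h (adjusted p = 4.77e-11), 2.08 ± 0.18 at 36 h (adjusted p = 1.68e-09) and 2.17 ± 0.10 at 48 h (adjusted p = 1.53e-15), and the injured difference exceeded that at 0 h by 3.33 ± 0.20 (adjusted p = 1.45e-11). Every alternative kept these calls.

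Jun, which had no called change in whole sections, turned in the same way. Its poor and rich levels were 20.8 and 42.0 CPM in 0 h 2, 15.5 and 24.4 in 0 h 3, 10.9 and 20.4 in 0 h 4, 30.3 and 21.3 in 24 h A, 58.6 and 28.7 in 24 h B, 22.1 and 8.01 in 36 h A, and 28.6 and 14.7 in 36 h B. At 48 h A to D they were 32.4 and 14.2, 37.2 and 26.1, 42.4 and 24.4, and 45.3 and 33.6. Jun was thus lower in poor spots of all 3 uninjured sections and higher in those of all 8 injured sections. The log2 difference was −0.86 ± 0.15 at 0 h (adjusted p = 0.000439), 0.78 ± 0.16 at 24 h (adjusted p = 0.000938), 1.17 ± 0.20 at 36 h (adjusted p = 0.000101) and 0.71 ± 0.11 at 48 h (adjusted p = 7.36e-06). Injured minus 0 h was 1.75 ± 0.18 (adjusted p = 1.32e-07). Without 24 h B the 24 h call was lost (0.51, adjusted p 0.117, against 5.79e-06 at the lowest).

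Klf6 and Ier3 had no called difference between the classes at 0 h and were higher in poor spots of every injured section. Klf6 lay at 6.02 to 6.38 CPM in poor and 5.59 to 5.89 in rich spots at 0 h, and at 22.4 to 58.6 and 6.46 to 19.5 over the 8 injured sections. Its log2 difference was 0.09 ± 0.17 at 0 h (adjusted p = 0.832), 1.63 ± 0.13 at 24 h (adjusted p = 9.87e-10), 1.41 ± 0.15 at 36 h (adjusted p = 2.95e-08) and 1.57 ± 0.09 at 48 h (adjusted p = 6.08e-14). Injured minus 0 h was 1.44 ± 0.18 (adjusted p = 6.64e-07). For Ier3 the differences were −0.03 ± 0.40 at 0 h, 1.32 ± 0.20 at 24 h (adjusted p = 4.77e-05), 1.33 ± 0.26 at 36 h (adjusted p = 0.000511) and 1.52 ± 0.16 at 48 h (adjusted p = 1.11e-07). Injured minus 0 h was 1.42 ± 0.42 for Ier3 (adjusted p = 0.0126), and this call was lost without 0 h 3 or without 0 h 4 (adjusted p 0.0570 and 0.0667, against 0.000913 at the lowest).

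Myc was higher in poor spots at all 3 injured times, by a log2 difference of 1.86 ± 0.22 at 24 h (adjusted p = 3.52e-07), 1.60 ± 0.23 at 36 h (adjusted p = 4.09e-06) and 0.97 ± 0.12 at 48 h (adjusted p = 1.95e-07). Over the injured sections its level was 11.9 to 17.5 CPM in poor and 3.67 to 8.86 in rich spots. At 48 h the difference was smaller than at 24 h by 0.89 ± 0.26 (adjusted p = 0.0149, in a contrast added after the data were seen), a call lost without 24 h B (adjusted p 0.178, against 0.00247 at the lowest). At 0 h it was 0.40 ± 0.26 (adjusted p = 0.426), and injured minus 0 h was 1.07 ± 0.29 (adjusted p = 0.00450).

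Egr1 and Ier2 did not keep to the poor spots. Egr1 stood at 44.5 and 19.3 CPM in poor and rich spots of 24 h A, 64.8 and 34.4 in 24 h B, 15.8 and 4.78 in 36 h A and 19.2 and 11.9 in 36 h B, but at 35.8 and 36.3, 50.7 and 114, 20.9 and 27.9, and 29.8 and 53.8 in 48 h A to D. Poor spots were thus above rich spots in the 4 sections at 24 h and 36 h and below them in the 4 sections at 48 h. The log2 difference was −0.33 ± 0.37 at 0 h (adjusted p = 0.708), 1.05 ± 0.29 at 24 h (adjusted p = 0.0221), 1.10 ± 0.41 at 36 h (adjusted p = 0.0644) and −0.64 ± 0.19 at 48 h (adjusted p = 0.0138), and 48 h minus 24 h was −1.69 ± 0.35 (adjusted p = 0.00774, added after the data were seen). The 24 h call was lost without 24 h A or 24 h B (adjusted p 0.196 and 0.122, against 0.00126 at the lowest), and 48 h minus 24 h without 24 h A (adjusted p 0.10, against 0.000201). The 48 h call was lost without 48 h D (adjusted p 0.0656) and with classes of 1 in 3 spots (0.0564). Under total-count scaling the 48 h difference was −0.03 (adjusted p 0.882, against 0.000257 at the lowest).

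Ier2 was lower in poor than in rich spots of every 0 h section (32.4 and 53.7, 30.9 and 47.0, 27.9 and 43.3 CPM) and of every 48 h section (56.3 and 90.4, 65.4 and 139, 41.9 and 61.0, 50.4 and 77.9 CPM). It was higher in poor spots of 24 h A and B (77.0 and 68.3, 98.1 and 75.5 CPM) and split at 36 h (51.7 and 58.9 in A, 47.2 and 42.4 in B). The log2 difference was −0.66 ± 0.10 at 0 h (adjusted p = 6.48e-05), 0.27 ± 0.11 at 24 h (adjusted p = 0.0645), −0.02 ± 0.12 at 36 h and −0.74 ± 0.08 at 48 h (adjusted p = 5.31e-09), whereas total-count scaling gave 0.73 at 24 h, 0.44 at 36 h and −0.13 at 48 h (adjusted p 4.94e-06, 0.00297 and 0.105). Over all alternatives the lowest adjusted p at 48 h was 4.82e-10. The 24 h difference was also called with classes of 1 in 3 spots, without 36 h B and without 48 h B (adjusted p 0.0339, 0.0493 and 0.0347). The 48 h difference lay 1.01 ± 0.14 below that at 24 h (adjusted p = 1.03e-05, added after the data were seen), and injured minus 0 h was 0.50 ± 0.12 (adjusted p = 0.00196).

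Fos depended on 1 section. Its poor and rich levels were 0.388 and 2.02 CPM in 0 h 2, 0.944 and 1.64 in 0 h 3, 0.672 and 1.86 in 0 h 4, 10.3 and 6.68 in 24 h A, 15.2 and 7.76 in 24 h B, 5.08 and 1.55 in 36 h A, 12.1 and 6.19 in 36 h B, and 12.9 and 3.03, 19.1 and 26.9, 18.3 and 6.76, and 14.6 and 4.61 in 48 h A to D. Poor spots were lower at 0 h, where they held only 3 to 8 UMIs per section, and higher in 7 of the 8 injured sections, the exception being 48 h B. With all sections no class difference of Fos was called, the log2 difference being −1.42 ± 1.32 at 0 h and 0.95 ± 0.39 at 48 h (adjusted p = 0.0594). Without 48 h B it was called at all 4 times, with −1.42 at 0 h (adjusted p 0.0228), 0.80 at 24 h (0.00398), 1.18 at 36 h (0.000905) and 1.68 at 48 h (1.76e-09). Injured minus 0 h was then 2.63 (adjusted p 1.97e-05). Of the other alternatives none called Fos at 0, 24 or 36 h, and 1 did at 48 h, total-count scaling (1.57, adjusted p 0.00487).

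Junb was called in neither direction between the classes, and Fosb at 24 h alone, at few UMIs. Junb was at 7.73 to 10.999 CPM in poor and 6.93 to 14.3 in rich spots at 0 h, and its log2 difference was 0.24 ± 0.14 at 24 h (adjusted p = 0.204), 0.39 ± 0.16 at 36 h (adjusted p = 0.0518) and 0.14 ± 0.10 at 48 h (adjusted p = 0.201). Total-count scaling gave 0.70, 0.86 and 0.75 at these times (adjusted p 0.000215, 6.17e-05 and 1.16e-07). Without 48 h B, the only 48 h section with more Junb in rich spots, it was 0.39 at 36 h and 0.29 at 48 h (adjusted p 0.0256 and 0.0118). Over 14 alternatives the 36 h difference of Junb was called in 6. Injured minus 0 h was 0.45 ± 0.185 for Junb (adjusted p = 0.0599), and it was called in 6 of 14 (adjusted p 0.000723 to 0.33). Fosb was higher in poor spots at 24 h by 1.93 ± 0.64 (adjusted p = 0.0220), resting on 26 against 4 UMIs in 24 h A and 7 against 4 in 24 h B, and the call was lost without 24 h A (adjusted p 0.645, against 0.00251 at the lowest).

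**Figure D4:**
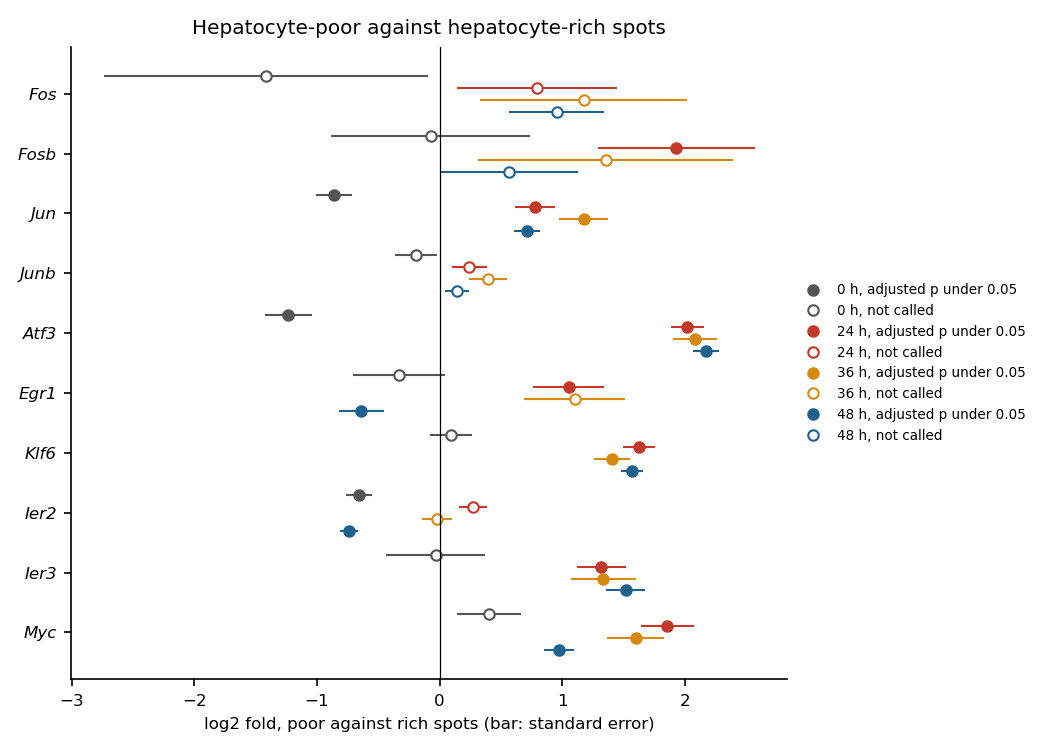
Log2 difference of each member between hepatocyte-poor and hepatocyte-rich spots at 0, 24, 36 and 48 h, with standard errors as bars and filled circles for an adjusted p under 0.05. Atf3 lay at −1.23 at 0 h and between 2.02 and 2.17 after injury, and Egr1 and Ier2 were below 0 at 48 h.

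Averaged over the injured times and set against 0 h, the signed class difference (poor minus rich) was higher for 6 of the 10 members (Jun, Atf3, Klf6, Ier2, Ier3 and Myc), against 16.2% of genes. It was lower for none, against 20.3%. For Ier2 the difference was −0.66 at 0 h and 0.27, −0.02 and −0.74 at 24, 36 and 48 h. A higher value here therefore does not mean more Ier2 in poor than in rich spots. For 48 h minus 24 h, no member was higher (10.5% of genes) and 3 were lower (12.5%). Markers of other cells also differed between these spots. Myofibroblast markers summed to 49.4 to 56.1 CPM in poor and 31.7 to 39.5 in rich spots at 0 h, and to 1120 to 2962 and 203 to 567 at 48 h, with all 4 called higher in poor spots at 24, 36 and 48 h. The 3 cycling markers summed to 2.07 to 3.86 and 1.76 to 2.91 CPM at 0 h and to 53.2 to 140.3 and 15.04 to 47.7 at 48 h, where all 3 were called higher in poor spots. Neutrophil markers summed to 3.24 to 10.6 CPM in poor and 2.55 to 11.7 in rich spots at 0 h, and to 67.4 to 283 and 33.8 to 61.3 at 24 h and 81.3 to 247 and 17.4 to 53.7 at 48 h. Macrophage markers summed to 462 to 492 CPM in poor and 653 to 772 in rich spots at 0 h, and to 1718 to 3609 and 495 to 934 at 48 h. Among cholangiocyte markers at 24 h, Krt8 was higher in poor spots (log2 0.96), Cdh1 lower (−1.87) and Epcam and Krt19 not called. Red blood cell markers (4 haemoglobin genes) summed to 64.9 to 2524 and 59.7 to 878 CPM at 0 h and to 512 to 2192 and 205 to 314 at 24 h. The part of these cells in the members' class differences was not tested.

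**Figure D5:**
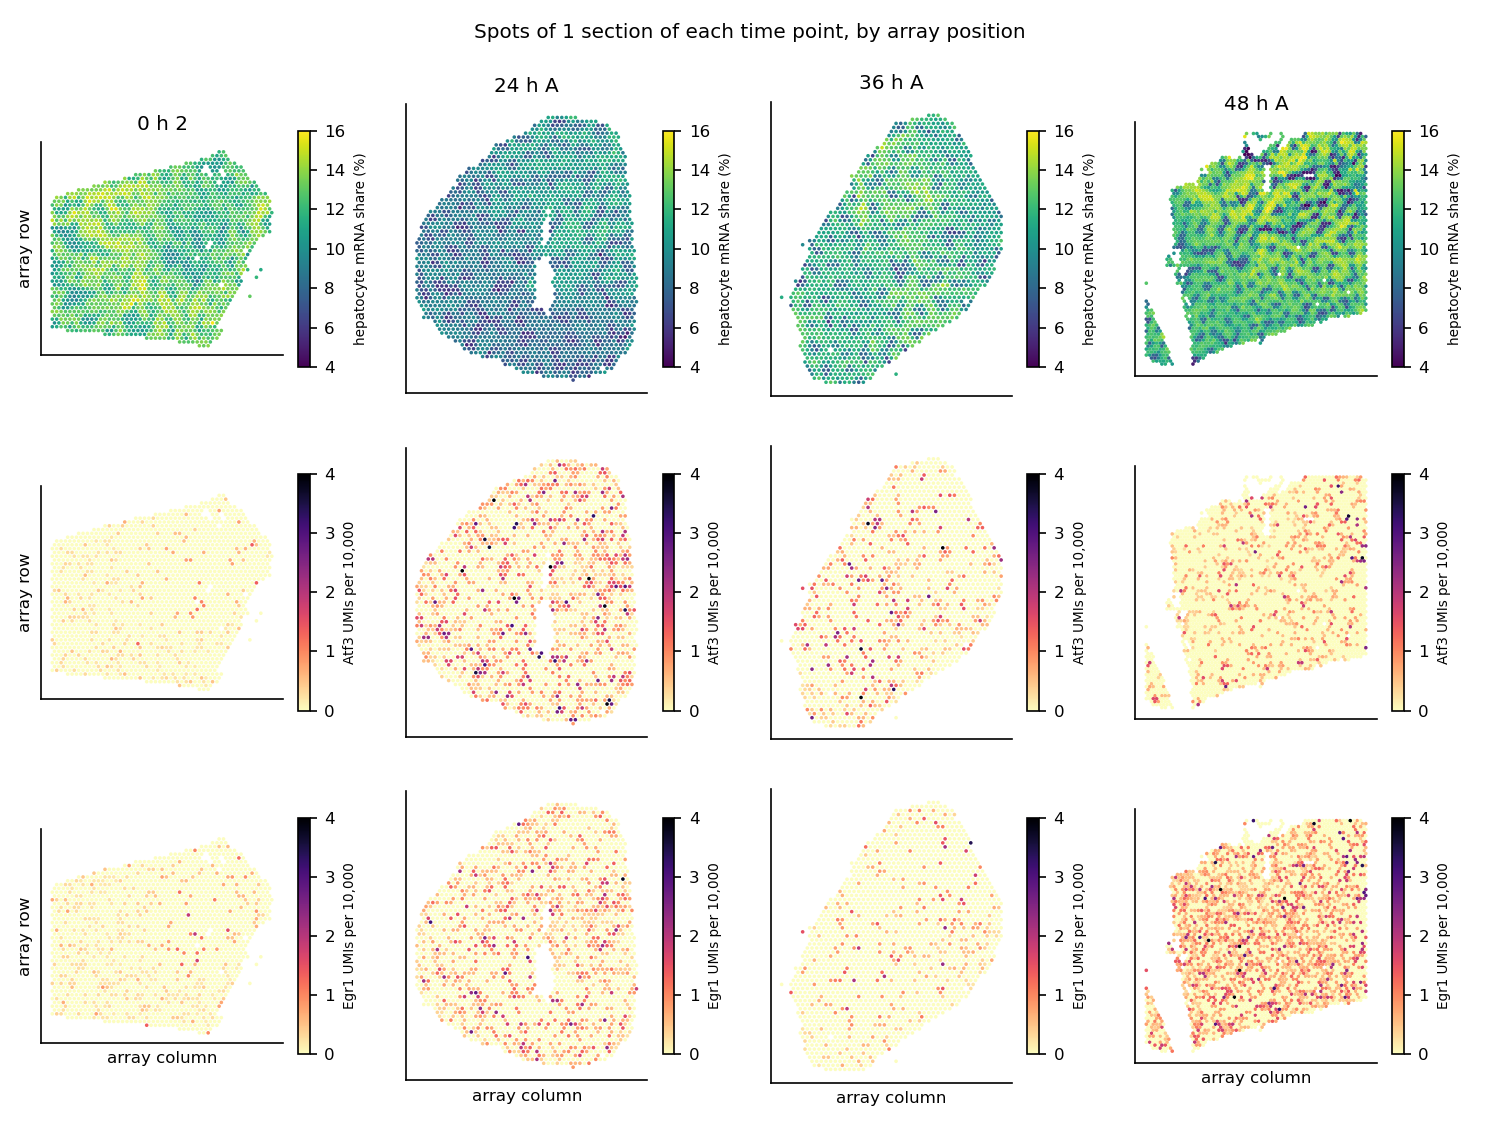
Spots of 1 section of each time point at their array row and column, coloured by the share of UMIs from the 7 hepatocyte genes (top, percent, 4 to 16), by Atf3 (middle) and by Egr1 (bottom), both in UMIs per 10000 with a scale capped at 4. Atf3 is scattered and faint in 0 h 2 and gathers in patches in 24 h A, and Egr1 covers much of 48 h A.

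Neighbouring spots shared Atf3 more after injury. As a description over the spots of a section, which share library and depth, Pearson's r between a spot's Atf3 level and the mean of its neighbours was −0.00 to 0.07 at 0 h, 0.27 and 0.33 at 24 h, 0.11 and 0.24 at 36 h and 0.20 to 0.27 at 48 h. Klf6 ran from −0.02 to 0.02 at 0 h and from 0.08 to 0.28 in injured sections, and Ier3 from −0.00 to 0.02 and from 0.03 to 0.36. Jun (−0.07 to 0.17 at 0 h, 0.03 to 0.22 after injury) and Ier2 (0.09 to 0.24, −0.02 to 0.28) overlapped. Spots were not thinned for r, and 5.11% to 13.7% of them held Atf3 at 0 h, against 39.6% and 37.0% at 24 h. The part of detection in r was not tested. Of the 45 pairs of members, Atf3 and Klf6 had the highest median r across spots of the injured sections (0.20, range 0.08 to 0.28), against −0.02 to 0.05 at 0 h. These values are low, and the part of sparse counts in that was not tested.

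In uninjured liver the lobule is zoned from the portal tract to the central vein, and the study lists genes of each end. With 23 central and 12 portal genes, spots were ranked and cut into 3 equal classes, and the most central was compared with the most portal class. Of the 9 members tested (Fosb did not pass the filter), none was higher in central spots, against 12.6% of 12297 genes, and 6 were lower, against 13.5%. Ier2 was at 28.3, 27.0 and 24.4 CPM in central and 47.2, 40.2 and 37.2 in portal spots of 0 h 2, 3 and 4, Jun at 17.2, 11.4 and 10.7 against 41.7, 21.6 and 16.7, and Atf3 at 3.07, 4.75 and 1.72 against 7.37, 7.34 and 4.06. All 3 were portal-high in every section, with log2 differences of −0.64 ± 0.05 (adjusted p = 7.29e-15), −1.02 ± 0.09 (adjusted p = 4.4e-09) and −0.94 ± 0.13 (adjusted p = 1.18e-07). Fos, with 6 to 17 UMIs per section in central spots, was lower there by 1.46 ± 0.28 (adjusted p = 4.02e-05) and Egr1 by 0.42 ± 0.11 (adjusted p = 0.00165).

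Junb was lower in central spots by 0.31 ± 0.10 (adjusted p = 0.0223), but was higher in 0 h 4, and the call was lost without 0 h 2, without 0 h 3 and under total-count scaling (adjusted p 0.408, 0.215 and 0.0657, against 0.000382 at the lowest). Klf6 (−0.23 ± 0.13, adjusted p = 0.220), Ier3 (0.17 ± 0.23) and Myc (0.40 ± 0.17, adjusted p = 0.0730) were not called. The 7 hepatocyte genes took 10.6% to 11.4% of UMIs in central and 12.8% to 13.6% in portal spots, so poor against rich and central against portal are not separate contrasts at 0 h.

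Over the 11 sections, the gene most like each member in log2 CPM, of 9825 compared, was Nup93 for Fos (r = 0.958), Mphosph10 for Fosb (0.903), Virma for Jun (0.863), Crlf3 for Junb (0.948), Manbal for Atf3 (0.962), Dusp6 for Egr1 (0.938), Plaur for Klf6 (0.986), Mcmbp for Ier2 (0.929), Smox for Ier3 (0.979) and Acnat2 for Myc (0.968). Each is the highest of many correlations over 11 points that share time point and depth. Dusp6 encodes a related phosphatase to Dusp5 and Plaur the urokinase receptor.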

How the data were processed

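Spatial RNA was captured from 11 mouse liver sections. The deposited values were raw UMI counts per gene and spot, which per the labels and the study's methods the authors made with Space Ranger 1.0.0 on mm10 with Ensembl gene models, with no normalisation. The members and gene lists were chosen with earlier results of these data known, and the central and portal lists were drawn by the study on its own spatial data. Spots marked as tissue in the deposited position files entered if they held 800 genes or more and no more than 20% of mitochondrial UMIs, and were summed per section, giving 31292663 to 67045372 UMIs, which limits members with few UMIs. The filter removed 0 to 103 spots a section.

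Section sums were tested with edgeR 4.0.16 in R 4.3.3 (filterByExpr, TMM, 1 quasi-likelihood fit of all 11 sections, robust, two-sided), and class sums with the section as a block. P-values were adjusted by Benjamini-Hochberg over all genes of a comparison, and called below 0.05. Tested on simulated data, the 24 h against 0 h steps recovered 95% of genes changed by a log2 fold of 2 and 45% of those changed by 1, with 6.04% false calls, on 14511 genes. The simulation gave every gene the same spread and changed 100 genes of each fold, so these rates need not hold for the members. Thinning drew 2000 UMIs per spot. Named genes were all members, the 3 genes of each list with the lowest p at 24 h against 0 h, listed genes not passing the filter (Egr3 in the class test), and the 1 gene most correlated with each member; 1 gene so chosen is not reported here. Alternatives were other scalings, DESeq2 1.42.0, other filters, only 2 time points, no spot filter, the replicate block, other spot classes and leaving out each section. Sections within a group differed by 39.7 to 212 chi-square units per gene, so none repeated the counts of another. This cannot show whether sections came from 1 mouse or tissue block.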

Additional observations from a re-analysis of the deposited data

Results flagged for a closer look

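The difference between hepatocyte-poor and hepatocyte-rich spots itself differed between injured and uninjured sections for 6 members by edgeR's quasi-likelihood test of the interaction. On the log2 scale the signed difference, poor minus rich, was higher after injury by 3.33 for Atf3, 1.75 for Jun, 1.44 for Klf6, 1.42 for Ier3, 1.07 for Myc and 0.50 for Ier2. Ier2 was higher in poor spots of both 24 h sections and lower in those of all 4 sections at 48 h, so its average over the injured times covers opposite directions. Between 24 h and 48 h, in a contrast added after the data were seen, the difference changed by −1.69 for Egr1, −1.01 for Ier2 and −0.89 for Myc. Among the 10 members, no 48 h section stood apart from the other 3 by Dixon's test at its critical value of 0.829, the widest gap being 0.769 of the range for Junb.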

How the results depend on the processing

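Of 62 called results of single members, 42 were called in every alternative run and none changed direction. Uncalled values near 0 changed sign as follows. Total-count scaling gave 0.26 for Fosb at 48 h against 0 h, 0.10 for Klf6 and 0.03 for Ier3 at 48 h against 36 h, 0.08 for Fosb and 0.12 for Ier3 between poor and rich spots at 0 h, 0.44 for Ier2 at 36 h, and 0.08, 0.04 and 0.09 for Jun, Junb and Klf6 in 48 h minus 24 h. For Klf6 at 48 h against 36 h, DESeq2 size factors and the DESeq2 Wald test each gave 0.02 and no filter 0.03. Classes of 1 in 3 spots gave 0.21 for Ier3 at 0 h and 0.00 in 48 h minus 24 h, and the lineage list gave −0.03 for Klf6 and 0.14 for Ier3 at 0 h, and −0.14 for Atf3 and −0.02 for Ier3 in 48 h minus 24 h.

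The number of members called at 36 h against 24 h (2) was 0 under total-count scaling, 0 with no filter, 0 with only the 2 time points and 4 by DESeq2. At 48 h against 36 h (1) it was 0 with no filter and 0 with only the 2 time points. At 36 h against 0 h (6) it was 3 with no filter, and between poor and rich spots at 36 h (5) it was 8 under total-count scaling. The cause was not tested. The median share of spots with a UMI was 2.55% thinned and 21.9% unthinned. With the section letter as a replicate block, 1 member was called at 36 h against 24 h and 0 at 48 h against 36 h, where Fosb, Klf6 and Ier3 were at 0.06, 0.20 and 0.35. Deviations of same-lettered sections correlated at −0.29 to 0.39, and those of unlike letters at −0.50 to 0.50. In a time point with 2 sections the deviations mirror each other, so these values cannot show whether the letters pair sections.

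Leaving out 1 section at a time, members called ranged from 5 to 8 at 24 h and 2 to 6 at 36 h against 0 h, 0 to 2 at 36 h against 24 h, 0 to 1 at 48 h against 36 h, and 5 to 8 between poor and rich spots at 36 h. The count of 5 at 24 h came without 24 h B, those at 36 h against 0 h of 2 and 3 without 36 h B and 0 h 4, and that of 8 without 48 h B. Log2 values that changed sign ranged, against 0 h, from −2.45 to 0.93 (Fosb, 36 h), −0.59 to 0.06 (Fosb, 48 h) and −0.07 to 0.38 (Ier2, 36 h). At 36 h against 24 h they ranged from −0.29 to 0.31 (Myc) and −1.35 to 0.14 (Junb). At 48 h against 36 h they ranged from −0.49 to 0.75 (Klf6), −0.11 to 0.54 (Junb), −0.06 to 0.57 (Myc), −1.20 to 2.18 (Fosb), −0.40 to 1.01 (Atf3) and −0.50 to 0.54 (Ier3). Between classes they ranged from −1.08 to 0.59 (Fosb, 0 h), −0.25 to 0.17 (Ier3, 0 h) and −0.19 to 0.17 (Ier2, 36 h), and in 48 h minus 24 h from −0.08 to 0.88 (Fos), −0.08 to 0.33 (Atf3), −0.32 to 0.20 (Jun), −0.21 to 0.05 (Junb) and −0.12 to 0.03 (Klf6). Where a time point kept 1 section, that section was assumed to vary like the others.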
